A study of Drosophila melanogaster with 3 samples.

Results

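The mitochondrial ribosomal protein genes of Drosophila melanogaster were examined for peaks of GFP-tagged CG15601. Members were all genes whose symbol is mRpL or mRpS followed by a number and at most 1 letter. There were 73 such genes, 47 of the large subunit (mRpL) and 26 of the small subunit (mRpS), among 18164 annotated genes and 13945 protein-coding genes on the major chromosome arms. The chromatin came from whole embryos 0-14 hours old, of both sexes pooled, from 1 transgenic line that stably expresses CG15601 with GFP at its C terminus. Chromatin was precipitated with an antibody against GFP, and bound DNA was read by sequencing (ChIP-seq). The 3 biological replicates form 1 group; there is no second genotype, stage or treatment, and whole embryos hold many cell types together.

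Mitochondria keep a small genome of their own and translate its messages on a dedicated ribosome. Its RNA is made inside the organelle, whereas its proteins are encoded in the nucleus, made in the cytoplasm and imported. The small subunit binds the message and decodes it, and the large subunit forms the peptide bonds. The products are core subunits of the respiratory chain and the ATP synthase, so that these nuclear genes are needed wherever a cell respires.

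A peak list was available for each replicate and for the 3 replicates pooled, each with 30000 peaks. A shorter list of 6458 peaks passed the authors' test of reproducibility between replicates (irreproducible discovery rate, IDR), and all 6458 entries were in the pooled list, where they were the strongest. Each peak has a summit and a signal, both as the authors' caller gave them. Signal is compared here only within a list, mostly as a rank, with 1 for the strongest peak. To set the replicate lists beside the IDR list, the strongest 6458 peaks of each replicate were used. A gene was counted when a summit lay within 500 bp of one of its start sites. The lists hold no read counts, so the sequencing depth is unknown. No 2 replicate lists shared a peak with the same ends and summit.

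Of the 73 members, 36 (49.3%) had an IDR summit, against 26.7% of protein-coding genes and 22.5% of all genes. In the strongest peaks of replicates 1, 2 and 3, 31, 38 and 44 members had a summit, where the shares of protein-coding genes were 23.8%, 26.5% and 29.5%. The mean over replicates was 51.6% ± 8.91 (SD, n = 3) of members. The members' share was above that of protein-coding genes in each replicate, by 18.7, 25.6 and 30.8 percentage points, a mean of 25.04 ± 6.07 (SD, n = 3). In the full replicate lists 49, 61 and 59 members had a summit, against 44.2%, 51.0% and 52.1% of protein-coding genes, and in the pooled list 54 members did, against 47.9%. No member had more than 1 IDR summit, and the 36 members had 36 distinct peaks. The count was 21 in the stronger 50% of the IDR list, and 22 where a peak had to match the strongest peaks of replicates 1 and 2, without replicate 3.

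**Figure D1:**
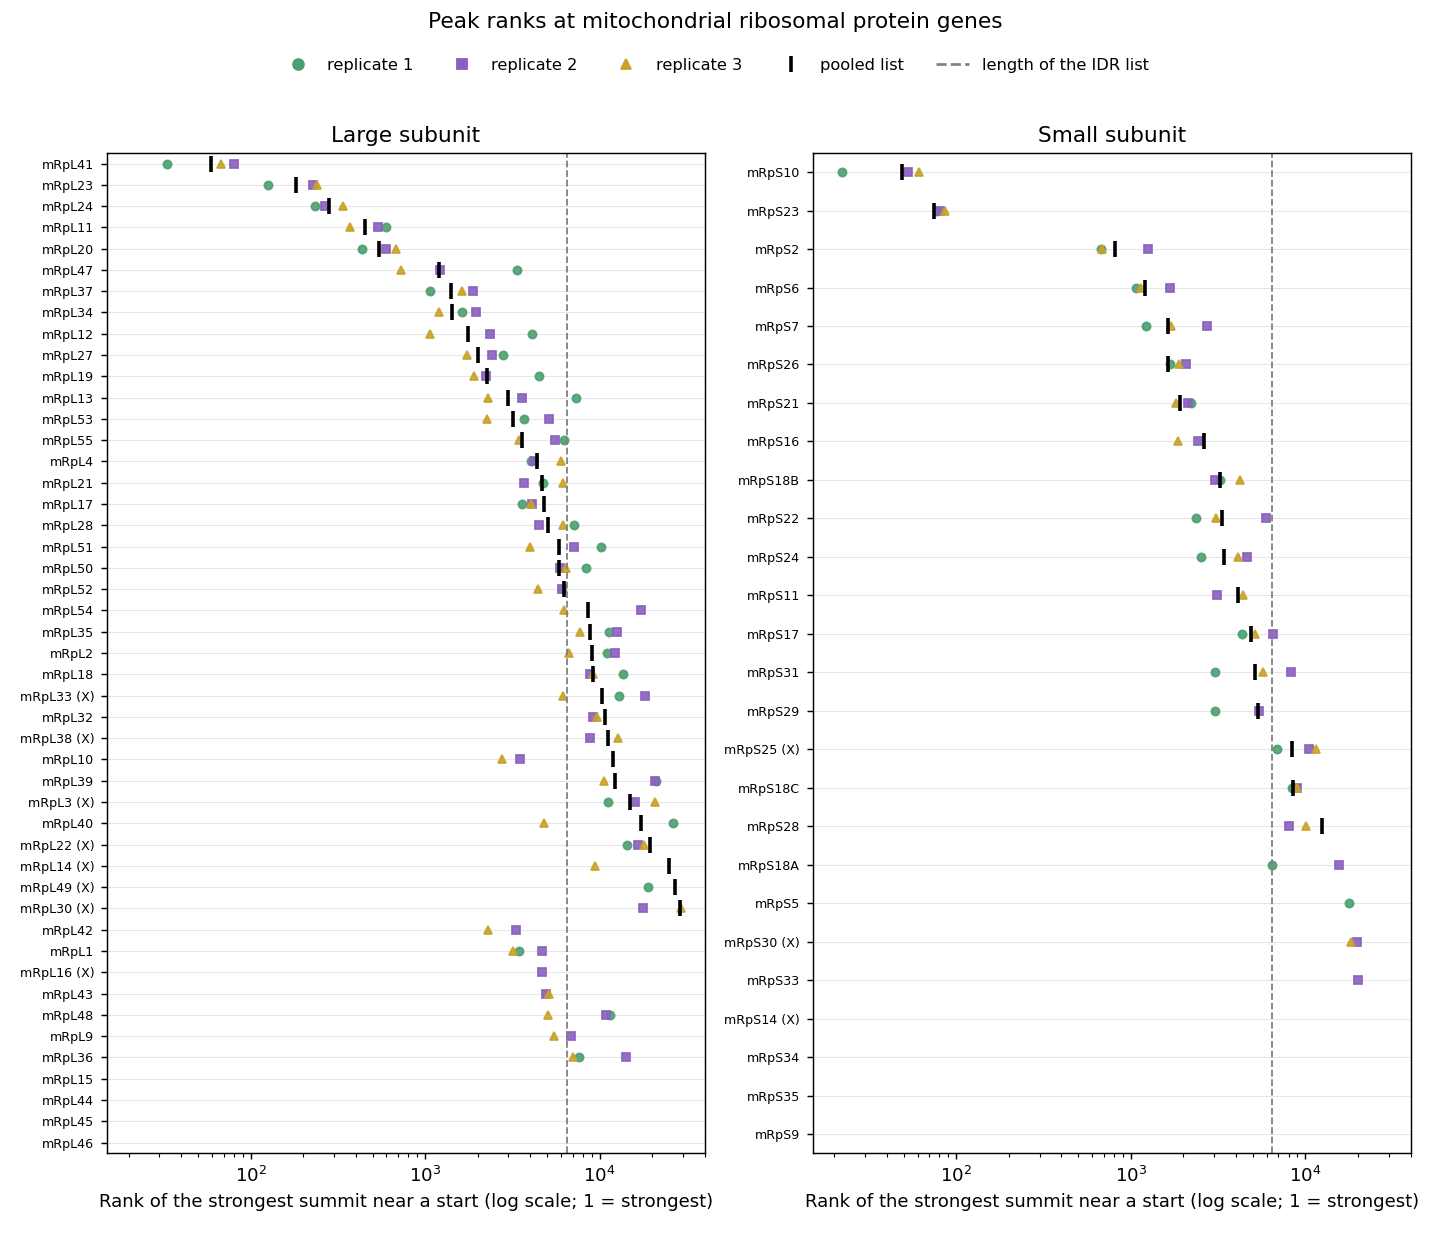
Rank of the strongest summit within 500 bp of a start (log scale, 1 = strongest) for each member of the large subunit (left) and the small subunit (right), in the 3 replicate lists (coloured points) and the pooled list (black ticks); the dashed line marks rank 6458, the length of the IDR list, and (X) marks genes on the X chromosome. The 36 members with an IDR summit have ticks left of the line, no X-linked member does, and 8 members have no point.

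The strongest peaks at members were found at genes of both subunits. At mRpS10 (FBgn0038307, chr3R:15229665-15230516), a protein of the small subunit, the summit ranked 22, 53 and 61 in replicates 1, 2 and 3 and 49 in the IDR list, with signals of 1218, 1101 and 1133 in the replicates. At mRpL41 (FBgn0034001, chr2R:15217024-15217617), of the large subunit, it ranked 33, 80 and 68, and 59 in the IDR list. At mRpS23 (FBgn0260407, chr2L:13834250-13835072), of the small subunit, it ranked 77, 81 and 86, and 74 in the IDR list. These 3 genes were within the strongest 100 peaks of every list. mRpL23 (FBgn0035335, chr3L:2372844-2373704), whose bacterial counterpart lies at the exit of the peptide tunnel, ranked 126, 228 and 241, and 181 in the IDR list. mRpL24 (FBgn0031651, chr2L:4944256-4945361), also named after a bacterial protein near that exit, ranked 234, 267 and 338, and 280 in the IDR list. mRpL11, counterpart of a bacterial protein at the base of the stalk that binds translation factors, ranked 595, 534 and 372, and 454 in the IDR list. mRpL20 ranked 435, 594 and 683, and 542 in the IDR list. These 7 genes were within the strongest 683 peaks of every replicate.

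The next members varied more. mRpS2 ranked 673, 1260 and 685, with 814 in the IDR list. mRpS6 ranked 1076, 1685 and 1147, with 1200 in the IDR list. mRpL47 ranked 3348, 1210 and 731, with 1193 in the IDR list, so that replicate 1 was far below the other replicates. In all, 7 of the 36 members with an IDR summit (19.4%) were among the strongest 645 IDR peaks, against 12.1% of the protein-coding genes with an IDR summit. The median IDR rank was 2438.5 over the 36 members and 2776 over those protein-coding genes.

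The IDR list was derived from the replicate lists, so the counts here describe it and are not independent of it. A summit was among the strongest peaks of all 3 replicates at 26 of them, of 2 replicates at 9, and of 1 replicate at mRpL51. All 3 held one at 72.2% of these members and 63.1% of protein-coding genes with an IDR summit. In the full lists 32 (88.9%) had a summit in all 3 replicates, against 87.3% of those protein-coding genes, and 4 in 2 of them. The weakest IDR peaks were those of mRpL52 (rank 6204), mRpL50 (5849) and mRpL51 (5814). mRpL52 had no summit in replicate 1 and ranked 6069 and 4416 in replicates 2 and 3. Just outside the IDR list, by pooled rank, were mRpS25 (8355), mRpS18C (8540) and mRpL54 (8578). mRpS18C ranked 8354, 8889 and 8982 in the replicates, close to its pooled rank, whereas mRpL54 had no summit in replicate 1 and ranked 17273 and 6239 in the others.

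The other 37 members fell into several classes. A pooled summit without an IDR summit was found at 18 members, 15 of them of the large subunit, and at 21.1% of protein-coding genes. At 11 members there was no pooled summit but a summit in at least 1 replicate list, as at 15.8% of protein-coding genes. No list held a summit at 8 members, namely mRpL15, mRpL44, mRpL45, mRpL46, mRpS9, mRpS14, mRpS34 and mRpS35, while 36.3% of protein-coding genes had none. A few members were strong in replicates and missing from the merged lists. mRpL1, whose bacterial counterpart forms a mobile stalk by the site where tRNA leaves, ranked 3440, 4645 and 3169 in the replicates, with summits 70, 114 and 91 bp upstream of its start, and had no pooled summit. mRpL42 and mRpL43 were absent from replicate 1 and from the pooled list. mRpL42 ranked 3319 and 2288 in replicates 2 and 3, and mRpL43 ranked 4901 and 5133. mRpL10, counterpart of the bacterial protein that anchors the stalk, ranked 3479 and 2748 in replicates 2 and 3, had none in replicate 1 and ranked 11856 in the pooled list. These 4 members were among the strongest peaks of 2 or 3 replicates without an IDR summit, as were 2.27% of protein-coding genes. Members among the strongest of exactly 1 replicate numbered 8, and 9.68% of protein-coding genes were in this class. The 5 strongest of them by rank were mRpL51 (rank 3962 in replicate 3), mRpL16 (rank 4697 in replicate 2), mRpL40 (4811 in replicate 3), mRpL48 (5030 in replicate 3) and mRpL9 (5488 in replicate 3).

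The order of the subunits by share depended on the list, and no mean difference exceeded the spread between replicates. An IDR summit was found at 21 of 47 large subunit genes (44.7%) and 15 of 26 small subunit genes (57.7%), a difference of -13.0 percentage points (large minus small). In the strongest peaks the difference was -17.7, 3.19 and 9.98 points in replicates 1, 2 and 3, so its sign changed between replicates. The mean was -1.50 ± 14.4 points (SD, n = 3; exact sign-flip permutation test over replicates, two-sided, p = 1.0). The pooled list held a summit at 36 of 47 large (76.6%) and 18 of 26 small subunit genes (69.2%). In the full replicate lists the difference was 2.70, 4.34 and 18.0 points, larger for large subunit genes in each. Its mean was 8.35 ± 8.40 points (SD, n = 3; exact sign-flip permutation p = 0.25). With 3 replicates this test cannot give a p below 0.25, so no difference between groups of members could pass 0.05. The p-values and SDs measure the spread over these 3 replicates.

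**Figure D2:**
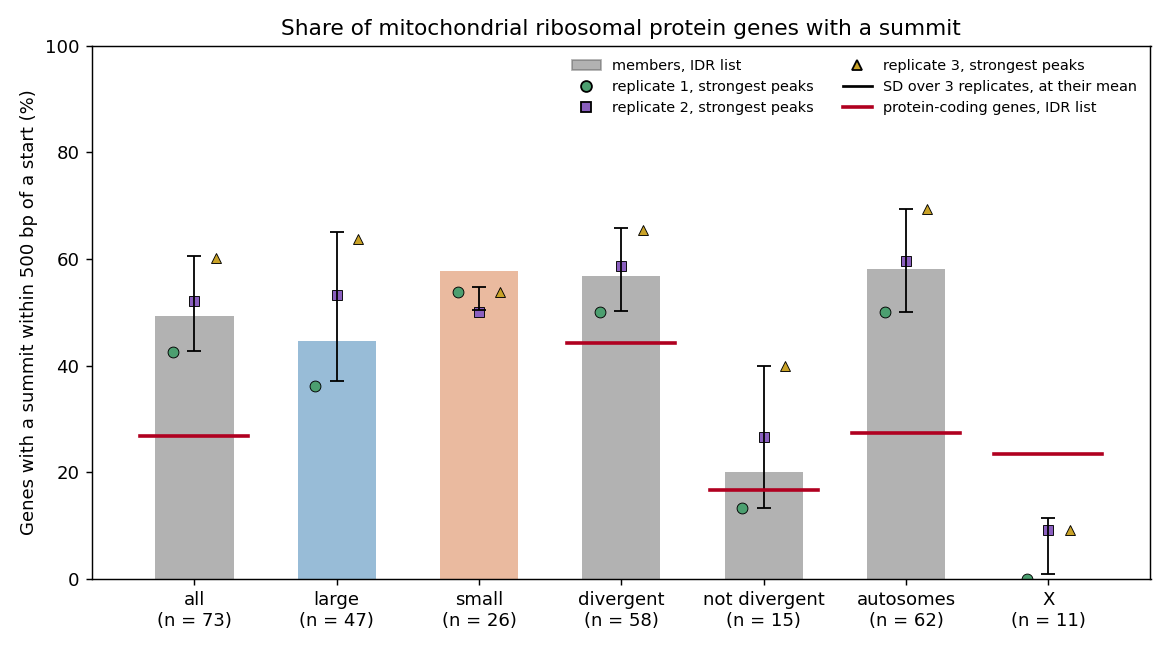
Share of members with a summit within 500 bp of a start (y axis, percent), for all members and for each split on the x axis; bars show the IDR list, points the strongest 6458 peaks of each replicate, whiskers the SD over 3 replicates at their mean, and red lines protein-coding genes of the same split in the IDR list. Divergent members reached 56.9% and the others 20%, and the bar for the X chromosome is at 0.

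Peaks lay mostly at members that share their upstream region with another gene. A member was called divergent when a protein-coding gene on the other strand had a start between 1000 bp upstream and 100 bp downstream of a start of the member. By this definition 58 of 73 members (79.5%) were divergent, against 36.3% of protein-coding genes. No member had another member as its partner. An IDR summit was found at 33 of 58 divergent members (56.9%) and at 3 of the other 15 (20%), a difference of 36.9 points. In the strongest peaks it was 36.7, 32.0 and 25.5 points in replicates 1, 2 and 3, a mean of 31.4 ± 5.60 (SD, n = 3; exact sign-flip permutation p = 0.25, the smallest possible). Every replicate had the higher share at divergent members. In the stronger 50% of the IDR list the difference was 11.03 points. Among protein-coding genes the same contrast was 44.3% against 16.7%, with a mean over replicates of 27.9 ± 2.44 points (SD, n = 3).

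Set against protein-coding genes of the same arrangement, divergent members were higher by 13.7 ± 3.43 points (SD, n = 3) in the strongest peaks, in each replicate. For members without a divergent partner the excess was -1.12, 10.3 and 21.6 points, which spans 0. By subunit, 18 of 37 divergent large subunit genes and 15 of 21 divergent small subunit genes had an IDR summit. Of the members with no divergent partner, 3 of 10 large and 0 of 5 small subunit genes had one.

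The regions between divergent starts are the sequences on which most of these peaks sit. The 5 shown are among the 6 strongest IDR peaks at members on arms 2L, 3L, 3R and X whose summit lay at least 5 bases inside a region of 80 to 300 bp. Each runs from the base after the partner's start to the base before the member's start, on the member's strand in the dm6 build, and the 11 bases centred on the IDR summit are in capitals.
Art3 to mRpS10, chr3R:15229409-15229664, plus strand: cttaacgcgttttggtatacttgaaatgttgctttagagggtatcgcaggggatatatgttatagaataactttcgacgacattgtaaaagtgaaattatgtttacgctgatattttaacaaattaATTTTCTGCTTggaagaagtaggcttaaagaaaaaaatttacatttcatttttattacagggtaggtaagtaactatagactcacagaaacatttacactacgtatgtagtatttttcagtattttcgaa
betaggt-I to mRpL24, chr2L:4945362-4945578, minus strand: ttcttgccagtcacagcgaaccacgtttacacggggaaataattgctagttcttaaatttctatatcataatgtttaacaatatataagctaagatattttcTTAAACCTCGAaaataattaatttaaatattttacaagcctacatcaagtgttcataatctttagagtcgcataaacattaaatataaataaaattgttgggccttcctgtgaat
Mon1 to mRpS2, chr2L:4850420-4850640, minus strand: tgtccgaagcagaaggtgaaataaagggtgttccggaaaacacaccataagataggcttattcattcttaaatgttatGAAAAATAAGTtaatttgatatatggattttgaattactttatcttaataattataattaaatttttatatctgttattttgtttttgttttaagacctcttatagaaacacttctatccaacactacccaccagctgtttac
Droj2 to mRpS21, chr3R:13381810-13382105, minus strand: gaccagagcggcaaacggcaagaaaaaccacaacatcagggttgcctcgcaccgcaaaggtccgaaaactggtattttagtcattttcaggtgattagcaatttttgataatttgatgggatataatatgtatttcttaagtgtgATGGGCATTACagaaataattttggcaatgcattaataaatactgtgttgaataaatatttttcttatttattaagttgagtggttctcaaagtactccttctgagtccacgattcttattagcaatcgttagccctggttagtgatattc
CG15435 to mRpL27, chr2L:4459639-4459728, minus strand: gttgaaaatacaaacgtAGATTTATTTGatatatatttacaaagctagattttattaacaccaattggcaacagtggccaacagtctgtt

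The partners of these members have varied roles. Art3 encodes an arginine methyltransferase, betaggt-I a subunit of geranylgeranyl transferase, and Mon1 a factor for Rab7 activation. Droj2 encodes a DnaJ-type chaperone. Other partners of members with an IDR summit included the mitotic kinase gene Cdk1 (with mRpS7), the microRNA effector AGO1 (with mRpL53), the dystroglycan gene Dg (with mRpL34), the ATPase gene rept (with mRpL21) and the ATP synthase subunit gene ATPsynD (with mRpL55). A summit in such a region is counted for both genes where it lies within 500 bp of a start of each. At mRpL41 the summit was 131 bp from the member's start and 631 bp from the partner's, and at mRpL4 125 and 668 bp. These data do not assign a summit to the member or to its partner.

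**Figure D3:**
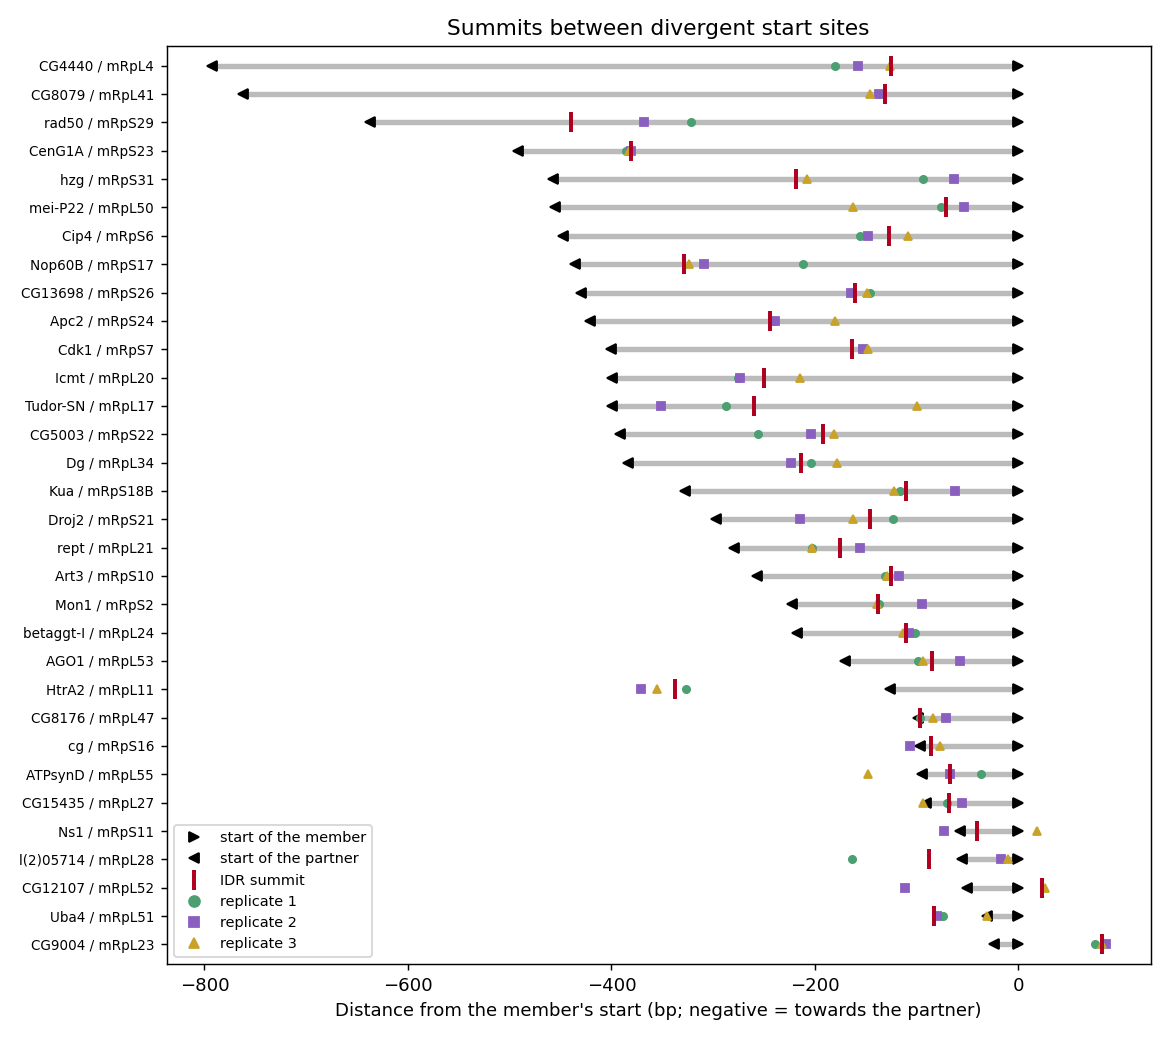
Summits at 32 of the 33 divergent members with an IDR summit, in order of the spacing between the starts; the x axis is the distance from the member's start in bp, with triangles for the starts of member and partner, a red tick for the IDR summit and points for the replicates. At 27 of the 32 pairs plotted the IDR summit lies between the starts.

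Summits lay between the starts at 28 of the 33 divergent members (84.8%), against 70.3% of divergent protein-coding genes with an IDR summit. These 2 sets were not matched for spacing, which ran from 24 to 793 bp at the members and from -99 to 993 bp at the protein-coding genes. A negative spacing means that the partner's start lies downstream of the gene's own. The exceptions among members were mRpL11, mRpL23, mRpL28, mRpL51 and mRpL52. The summit was nearer to the member's start at 14 and nearer to the partner's at 18, and at mRpL53 it lay 85 bp from each. For the 23 with at least 150 bp between starts and the summit between them, the median position was 0.492 of the way from member to partner, against 0.482 for protein-coding genes. It lay in the middle part, from 25% to 75% of the way, at 18 of the 23 (78.3%), against 72.5%. At mRpL24 the summit was 110 bp from the member's start and 108 bp from the start of betaggt-I. At mRpS10 these distances were 125 and 132 bp, and at mRpS21 146 and 151 bp.

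Peaks were found at members with every spacing between starts. An IDR summit was found at 9 of 18 members with up to 100 bp between starts, 8 of 15 with over 100 and up to 300 bp, 13 of 20 with over 300 and up to 500 bp and 3 of 5 with more, up to 1000 bp. For protein-coding genes the shares in these bins were 39.8%, 49.9%, 53.9% and 30.02%.

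Summits were upstream of the members' starts. The median distance from the nearest start was -126 bp over the 36 members with an IDR summit (negative is upstream), and 34 of them (94.4%) had the summit upstream. Protein-coding genes had a median of -123 bp and 85.5% upstream. In the strongest peaks of replicates 1, 2 and 3 the members' median was -137, -127 and -117.5 bp. Only mRpL23 (56 bp) and mRpL52 (23 bp) had an IDR summit downstream. mRpL23 has 3 annotated starts and mRpL52's replicate summits disagreed, at -111 bp in replicate 2 and 26 bp in replicate 3.

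The median summit of small subunit genes lay farther upstream than that of large subunit genes in every list. The median IDR offset was -97 bp for large and -161 bp for small subunit genes. In the replicates it was -102, -111 and -92.5 bp for large and -150, -153 and -148.5 bp for small subunit genes. The difference was 48, 42 and 56 bp, a mean of 48.7 ± 7.02 bp (SD, n = 3; exact sign-flip permutation p = 0.25, the smallest possible), and it had the same sign in every replicate. The spacing to the divergent partner moved with it: among divergent members with an IDR summit its median was 194 bp for large and 400 bp for small subunit genes. Over all divergent members, with or without a summit, the median spacing was 264 bp for large and 392 bp for small subunit genes. The spacing thus differed in the annotation itself, by less than among members with an IDR summit. As a fraction of the spacing the IDR summit stood at 0.502 for large and 0.490 for small subunit genes (10 and 13 genes with the summit between starts at least 150 bp apart). The median spacing in the strongest peaks of replicates 1, 2 and 3 was 279, 279 and 230 bp for large and 410.5, 392 and 396 bp for small subunit genes. The fraction there was 0.4996, 0.368 and 0.410 for large and 0.486, 0.455 and 0.458 for small subunit genes, so its order differed between lists. The part of spacing in the offset difference was not tested further.

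**Figure D4:**
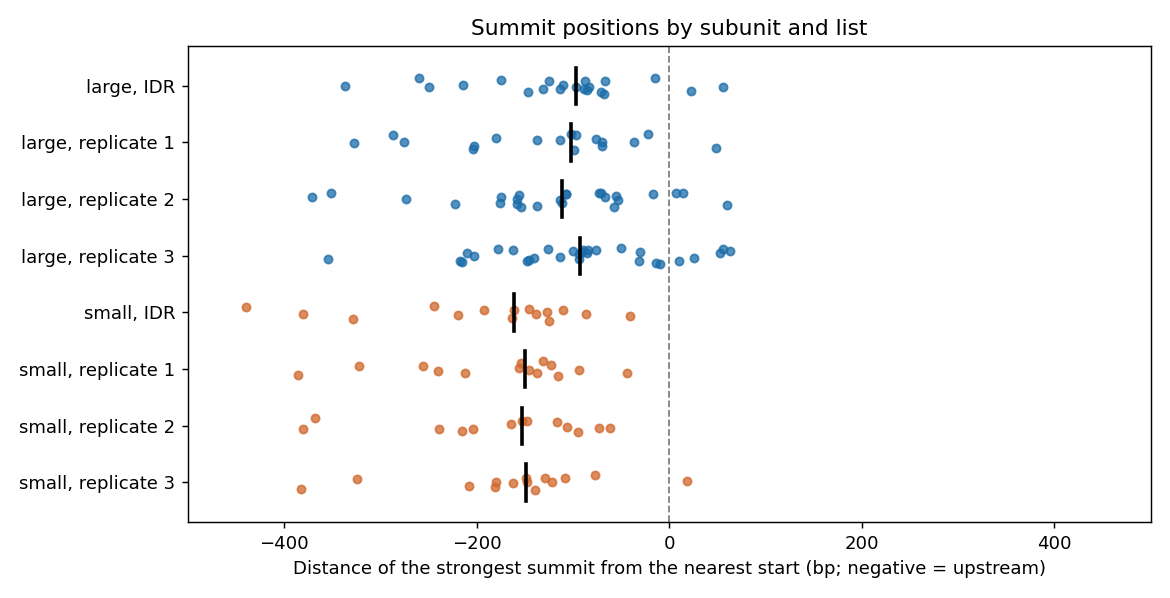
Distance of the strongest summit from the nearest start (x axis, bp; negative is upstream) for members in the IDR list and in the strongest 6458 peaks of each replicate, by subunit; each point is a gene, with vertical jitter for display, and black bars are medians. The medians for small subunit genes lie near -150 bp in each replicate and those for large subunit genes between -111 and -92.5 bp.

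The order of peak strength by subunit depended on the list. In the IDR list the median percentile of signal (100 is the strongest) was 65.2 for large and 59.3 for small subunit genes. In the strongest peaks of the replicates it was 48.2, 46.1 and 54.2 for large and 64.6, 62.4 and 71.0 for small subunit genes, lower for large in each (mean difference -16.5 ± 0.271, SD, n = 3; exact sign-flip permutation p = 0.25). Over all 30000 peaks the difference was -9.89, -0.637 and -4.10 points. The direction in the IDR list was thus opposite to that in the replicate lists.

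Summit positions varied between replicates by a few bp at some members and by over 100 bp at others. At mRpS23 the replicate summits were at -386, -381 and -383 bp, a range of 5 bp, the narrowest among members with an IDR summit. The next were mRpS7 with 6 bp and mRpL41 with 9 bp. Over the 10 members with the strongest IDR summits the range ran from those 5 bp to 61 bp at mRpL20. Over the 32 members with an IDR summit and a summit in all 3 full lists, the median range was 47.5 bp (5 to 251 bp), and 18 were within 50 bp. For the 12 members with summits in all 3 lists and no IDR summit the median range was 130 bp. The corresponding medians for protein-coding genes were 60.0 and 172 bp. The widest IDR member was mRpL17, with summits at -287, -351 and -100 bp.

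No X-linked member had an IDR summit. The contrast was taken up after the values had been seen. Of the 11 members on the X chromosome, 0 had one, against 36 of 62 autosomal members (58.1%). Protein-coding genes differed less, with 23.5% on the X chromosome and 27.3% on autosomes. If genes were independent draws, 0 of 11 would allow a share of up to 27.3% by counting error alone. That limit takes 3 counts as the upper bound of a count of 0, which is an approximation. Genes are not replicates and the contrast was chosen after the fact, so this limit is only a rough guide. In the strongest peaks 0, 1 and 1 X-linked members had a summit in replicates 1, 2 and 3, namely mRpL16 in replicate 2 and mRpL33 (rank 6189) in replicate 3. The difference, autosomes minus X, was 50, 50.6 and 60.3 points for members, a mean of 53.6 ± 5.76 (SD, n = 3; exact sign-flip permutation p = 0.25). For protein-coding genes it was 3.74 ± 2.24 points (SD, n = 3). In the IDR list the members' difference was 33.9 points in the stronger 50% and 35.5 points without replicate 3.

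Most X-linked members did have weaker peaks. In the full lists 5, 8 and 8 of the 11 had a summit in replicates 1, 2 and 3, and 8 had a pooled summit, the strongest of which was that of mRpS25 at rank 8355. Of protein-coding genes on the X chromosome, 43.9%, 56.6% and 53.6% had a summit in the full lists of replicates 1, 2 and 3, and 53.6% a pooled one. Over all peaks the difference between autosomes and X was 25.5, 12.8 and 9.53 points for members and 0.387, -6.75 and -1.77 points for protein-coding genes. A divergent partner was present at 9 of the 11. Among divergent protein-coding genes on the X chromosome 35.9% had an IDR summit. Some X-linked genes outside the rule had IDR summits, as did 23.5% of all protein-coding genes on the X chromosome. Cytoplasmic ribosomal protein genes had one at 13 of 13 on the X chromosome and at 74 of 85 in all. The part of the chromosome in the members' contrast was not tested. The small subunit gene tko, which the symbol rule does not take in, had one at rank 5531, and SLIRP1, an RNA-binding protein gene, had one at rank 918.

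Other genes of mitochondrial gene expression were examined as a list. Of 38 listed symbols 36 were matched, and 15 of these (41.7%) had an IDR summit, with 8, 12 and 17 in the strongest peaks of the replicates. SLIRP2, related to the RNA-binding SLIRP1, was the strongest at IDR rank 149, with 108, 202 and 167 in the replicates. LeuRS-m, the mitochondrial leucyl-tRNA synthetase gene, ranked 2217. The list held 2 mitochondrial ribosomal protein genes that the rule misses, both low in the IDR list. There bonsai ranked 5915 with its summit 10 bp downstream of the start, and tko ranked 5531 with its summit 7 bp upstream. Neither had a summit in replicate 1, and in replicates 2 and 3 bonsai ranked 5867 and 5907 and tko 8081 and 2793. The polymerase gene PolrMT and the DNA-packaging factor gene TFAM had no IDR summit. Cytoplasmic ribosomal protein genes had one at 74 of 85 (87.1%), with a median offset of -37.5 bp and a median IDR rank of 1592, closer to the start than the members' -126 bp.

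In all, 11 short words were counted on both strands in the 250 bp before each gene's start. The DNA replication-related element (DRE, TATCGATA), a core promoter word of many housekeeping genes, was present at 9 members, 3 of the 36 with an IDR summit (8.33%) and 6 of the 37 without (16.2%). Among protein-coding genes it was present at 13.7% with and 5.92% without an IDR summit, and at 7.996% of all. With minus without a summit in the strongest peaks of replicates 1, 2 and 3, the members' difference was -4.61, 1.73 and -8.15 points, so its sign changed. The shorter word CGATA, which lies inside the DRE and is bound by BEAF-32, was present at 14 of 36 members with an IDR summit (38.9%) and 25 of 37 without (67.6%), and at 42.6% of all protein-coding genes. Protein-coding genes had the opposite order, with 52.4% and 39.0%. With minus without an IDR summit, the difference for members was -28.7 points, the largest in size among the 11 words. In the strongest peaks of replicates 1, 2 and 3 it was -19.97, -23.6 and -20.06 points. For protein-coding genes it was 10.7, 13.2 and 14.98 points. On autosomes alone the members' difference was -22.6 points in the IDR list and -12.9, -19.5 and -13.7 points in the replicates. The DRE instances in 3 members with an IDR summit (mRpS23, mRpL20 and mRpL19) and 3 without (mRpL10, mRpL16 and mRpL22) are shown as examples of where the word lies, with 15 bases on each side and the word in capitals, on the member's strand in dm6.
mRpS23, chr2L:13835059-13835096, minus strand: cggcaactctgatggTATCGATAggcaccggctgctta
mRpL20, chr3L:13017855-13017892, minus strand: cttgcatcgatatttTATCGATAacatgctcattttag
mRpL19, chr3R:8674069-8674106, plus strand: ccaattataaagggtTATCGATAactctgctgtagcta
mRpL10, chr2L:203756-203793, plus strand: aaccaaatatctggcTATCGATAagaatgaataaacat
mRpL16, chrX:1890209-1890246, plus strand: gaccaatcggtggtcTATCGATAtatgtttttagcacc
mRpL22, chrX:16783845-16783882, plus strand: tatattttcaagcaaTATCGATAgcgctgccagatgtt

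The match is of letters and not of a bound site. The word lay 9 bp upstream of the start of mRpS23, whereas that gene's summit was 381 bp upstream. Within 50 bp of an IDR summit the DRE was found at mRpL12 alone, 1 of 36 members (2.78%), against 5.07% of protein-coding genes. CGATA was found there at 5 of 36 members (13.9%), against 25.9% of protein-coding genes. In the 250 bp before the start, the GAGA word GAGAG was present at 1 of 36 members with and 7 of 37 without an IDR summit. Protein-coding genes had it at 23.3% with and 26.6% without an IDR summit, and at 25.7% of all. Within 50 bp of an IDR summit GAGAG was found at 3 of 36 members (8.33%), close to the 7.81% of protein-coding genes. The ETS word CCGGAAG and the Zelda word CAGGTAG were found upstream of 0 of 73 members, and of 0.861% and 1.499% of protein-coding genes. The M1BP word GGTCACACT was found at mRpS16 and mRpL48, and at 3.12% of protein-coding genes. The upstream regions of members were poor in G and C, with a median of 31.2% for those with and 33.6% for those without an IDR summit, against 37.2% for all protein-coding genes.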

How the data were processed

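ChIP-seq peak lists of GFP-tagged CG15601 in embryos (3 replicates, 1 group) were used as deposited. Per the file headers, which list derived files, positions are on dm6, the replicate and pooled lists were called separately against 1 shared control, and the IDR list was derived from them. The signal of each peak is the authors' value from the deposited lists and is not scaled between lists. Aligner and peak caller: not given in the sources used here. Depth is unknown, so intervals and limits cover counting error only.

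Start sites were those of all transcripts in Ensembl release 115 (BDGP 6.54), which shares the dm6 sequence; sequences were read from the RefSeq genome of release 6. The strongest summit within 500 bp was taken per gene. Shares were compared over replicates with an exact sign-flip permutation test (scipy 1.17.1, Python 3.11.15). Genes are not replicates and no test was made over them. The scripts were tested on simulated peaks.

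The members and lists were chosen with earlier results of these data known. Named members were the 10 strongest, those nearest the IDR limit, those without a summit, those unstable between replicates, and their partners; any further member named was picked with its values in view. The comparison of the X chromosome, the words by list, the percentiles within the strongest peaks, the spacing by subunit and the margin for printed regions were also added after values were seen. Alternatives were the window, the peak list, replicates left out, matching and partner distance. 1 divergent pair is not reported here individually.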

Additional observations from a re-analysis of the deposited data

How the results depend on the processing

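The alternatives were applied to 6 results. Large minus small subunit, the divergent difference and the median offset kept their sign in all of them. For large minus small subunit every alternative used the IDR list, so the kept sign holds only within that list. Outside it the difference was -17.7, 3.19 and 9.98 points in the strongest peaks of replicates 1, 2 and 3. In their full lists it was 2.70, 4.34 and 18.0 points. A count and a percentile cannot change sign. Autosomes minus X could not do so in any part of the IDR list, because no X-linked member had an IDR summit. Of 36 members with an IDR summit, 21 were counted in the stronger part (50%) of the IDR list. The count was 22 when a peak had to match all 3 replicates by 50% of both peaks, and 22 to 28 with 1 replicate left out. Leaving out a replicate meant that an IDR peak had to match the strongest peaks of the others, which is a stricter list. Without replicate 3 all 6 results had the same values as with the match by 50%, so these are not separate checks. Large minus small subunit (-13.0 points) ranged from -18.5 without replicate 2 to -0.573 with a covered start, and moved from its value by less than the replicate SD of 14.4 points in all 10 alternatives. That SD is larger than the difference itself, so this comparison cannot show that the difference is stable. The divergent difference of 36.9 points was 28.3 with a 250 bp window, 11.03 in the stronger part of the list, 26.3 when the peak had to cover a start, 29.8 when matched by 1 bp, 26.6 with partners within 500 bp, and 37.9 to 43.1 with 1 replicate left out. The median offset of -126 bp was -114 with 250 bp, -110 with a covered start, -138.5 when matched by 50%, and -146 to -126 with 1 replicate left out. The median percentile of 62.3 was 65.2 with 250 bp and 65.2 with 1000 bp, 78.3 in the stronger part, 59.3 with a covered start, 72.6 when matched by 50%, 74.7 by 1 bp, and 56.5 to 72.6 with 1 replicate left out. These percentiles were judged against the SD over full replicate lists (1.13), as designed. The autosome minus X difference of 58.1 points was 50 with 250 bp, 33.9 in the stronger part, 40.3 with a covered start, 35.5 when matched by 50%, 43.5 by 1 bp, and 35.5 to 45.2 with 1 replicate left out. The causes were not tested, except that stricter lists hold fewer peaks. No paired analysis was possible because there is 1 group. Unknown depth limits what the absence of a peak shows: it means not listed, not unbound.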
